A study of Tilletiopsis washingtonensis and Meira miltonrushii with 14 samples.

Results

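The genes described here are the *Tilletiopsis washingtonensis* genes whose transcripts were strongly raised in yeast growth. They were chosen from the deposited normalized read counts by 3 limits: a mean of at least 250 over the 4 yeast libraries, a yeast mean at least 4 times the filamentous mean after 1 was added to both, and a lowest yeast library above the highest filamentous library. These limits took 186 genes of the 7011 in the species' count table, or 2.65%, and of the 14463 counted in the series with its other species, *Meira miltonrushii*. The count that chose the members is the one described in what follows, so levels and ratios of the members are given as a description and carry no test.

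Dimorphic fungi switch between budding yeast cells and branching filaments. In the smut fungi and their relatives, the Ustilaginomycotina, the yeast is the form that is easily grown on sugar, and in the corn smut *Ustilago maydis* lipids are known to bring on filaments. Glucose is known in many fungi to keep genes for the use of other carbon sources silent, and growth on fatty acids calls for the pathways that break them down and rebuild sugars from them. The reference table pairs the identifiers used here with locus tags alone, so the members are named by locus tag, no role is given to any of them, and no list of pathway genes was counted.

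The yeast libraries, 4 of them, came from strain MCA 4186 (NRRL Y-63783) in Holliday's minimal medium with 1% glucose, and the 4 filamentous libraries from the same strain in that medium with 1% Tween40, a detergent built from sorbitan, polyoxyethylene and palmitic acid. All 8 samples came from cells held for 7 days in potato dextrose broth and then kept for 3 days at 25 °C in the test medium. Growth form and carbon source changed together, in a single strain, and cannot be told apart. Gene counts per library were 21.3 M to 29.96 M in yeast and 12.3 M to 30.3 M in filamentous growth, with filamentous replicate 4 the shallowest. In such bulk cultures fewer cells of a kind and less RNA per cell cannot be told apart.

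Together the members supplied 6.64%, 6.64%, 6.53% and 6.51% of gene counts in yeast replicates 1 to 4, against 0.855%, 0.921%, 0.923% and 0.885% in filamentous replicates 1 to 4. The share averaged 6.58% ± 0.0688 in yeast and 0.896% ± 0.0327 in filamentous libraries (SD, n = 4 each). It was thus close to constant within each form. No single member held most of the reads, but a small part of the members did. The single highest member held 8.38% of their normalized yeast counts and the 10 highest held 35.8%. The greater part was held by 18 of the 186. No member was among the 10 genes with the highest yeast means. Of the 100 genes with the highest yeast means 14 were members, where members were 2.65% of all genes. None was among the 100 highest in filamentous libraries. The members' median rank among all genes was 1520.5 by yeast mean and 5120.0 by filamentous mean. The limits on level and ratio enter these counts and ranks. Normalized counts are not divided by transcript length, so orders between genes are orders of reads and not of transcripts.

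**Figure D1:**
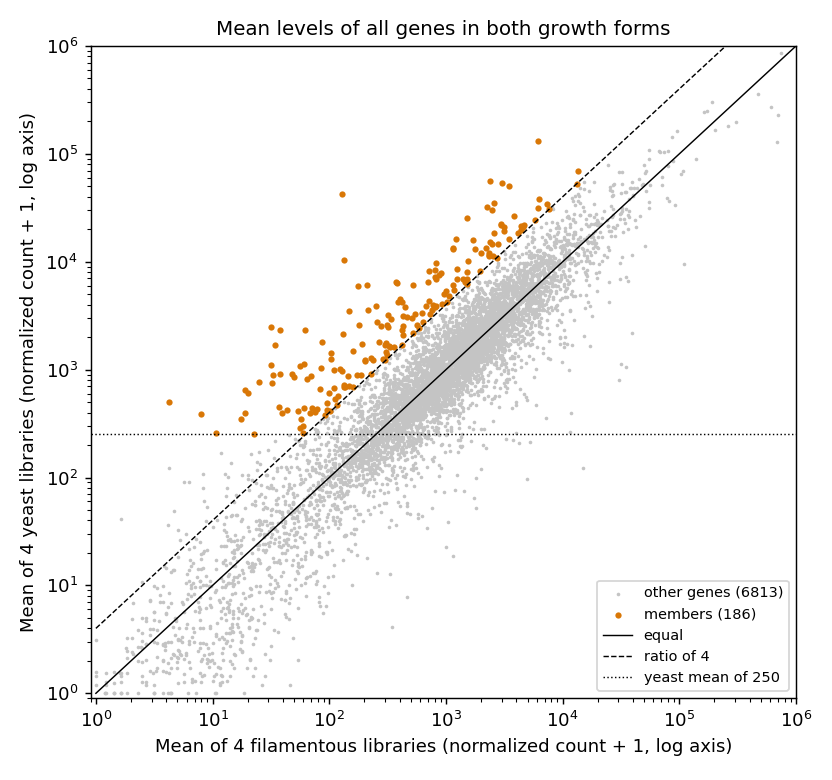
Each point is a gene, with its mean normalized count plus 1 over the 4 filamentous libraries on the x axis and over the 4 yeast libraries on the y axis, both logarithmic; the dashed line is the ratio of 4 and the dotted line the yeast mean of 250. The 186 members lie above both lines, with yeast means of 254 to 131967 and filamentous means of 3.21 to 13521.

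Most members had ratios below 8. The ratio of the yeast mean to the filamentous mean had a median of 6.19 and quartiles of 4.90 and 11.9. It was between 4 and 8 for 111 members, between 8 and 16 for 41, between 16 and 32 for 23, between 32 and 64 for 7 and above 64 for 4. Over all 6999 genes of the normalized table, 0.514% had a ratio of at least 16, and 34 members did. Within the members the ratio hardly followed the yeast level (Spearman rho -0.04 across the 186 members, which share libraries and are not replicates). The limits cut on both quantities and the yeast mean enters the ratio, so this value describes the chosen genes only. On the scale of edgeR's model of the raw counts, the log2 fold change of yeast over filamentous growth had a median of 2.63 over the members, against -0.04 over all 6727 genes tested. All 186 members were among the genes called higher in yeast growth at an adjusted p of 0.05, a call that 30.7% of genes tested received. A call as lower went to 31.1% of genes tested and to no member, and 61.8% had a call in either direction. Lowest yeast above highest filamentous library, one of the 3 limits, held for 27.0% of genes in the table and removed no gene that met the other limits. Since the limits used this contrast, nothing is read from these counts.

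The member with the most reads was FA09DRAFT_292634, 14th of all genes by yeast mean and 600th by filamentous mean. Its normalized counts were 141504, 132140.2, 150016 and 104206 in yeast replicates 1 to 4, against 5161, 7144, 8713 and 3529 in filamentous replicates 1 to 4, a ratio of 21.5. Yeast replicate 4 was the lowest yeast library and was still far above every filamentous library. FA09DRAFT_307515, the next by reads, had 70196, 69886, 73416 and 66129 in yeast and 12712, 19695, 14437 and 7241 in filamentous libraries. This gene was nearly level across yeast libraries and varied more among filamentous ones, where replicate 4 was the lowest. FA09DRAFT_330583 had 59564, 60677, 53748 and 51027 in yeast and 2320.3, 2579, 2624 and 1920.2 in filamentous libraries, a ratio of 23.8 with little spread in either form. The counts of FA09DRAFT_335341 were 51051, 57738, 34715 and 71245 in yeast and 1880.3, 4331, 4438 and 1367 in filamentous libraries. It was the least even of the 10 most read members in filamentous growth, with replicates 2 and 3 well above replicates 1 and 4.

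Among the others of the 10 most read members, FA09DRAFT_330685 stood at 50279.8 ± 5336 in yeast and 3477 ± 365 in filamentous libraries (SD, n = 4 each), and FA09DRAFT_175412 at 35291 ± 5092 in yeast and 2596 ± 327 in filamentous libraries. Both were steady within each form. FA09DRAFT_330009 averaged 37870.03 ± 3498 in yeast and 6300.2 ± 2119.9 in filamentous libraries, and FA09DRAFT_331806 averaged 34127 ± 3736 in yeast and 7333 ± 1613 in filamentous libraries. FA09DRAFT_329750, at 52904 ± 7219.8 in yeast and 13162 ± 3979.99 in filamentous libraries, had a ratio of 4.02 and so lay just inside the limit. The least counted of the 10 in filaments, FA09DRAFT_292543, had 200, 180, 127 and 47 raw counts in filamentous replicates 1 to 4.

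FA09DRAFT_292543 was the only one of the 10 most read members that also had one of the 10 largest ratios. Its normalized counts were 43239.7, 42387, 57229.7 and 25813 in yeast replicates 1 to 4, against 164, 155, 110.2 and 78.3 in filamentous replicates 1 to 4. It ranked 64th by yeast mean and 5953rd by filamentous mean, and its ratio of 329.6 was the largest of all members. In both forms replicate 4 held its lowest value. FA09DRAFT_315524 had 11381, 10562, 10808 and 8418 in yeast and 140.3, 156, 156 and 73.3 in filamentous libraries, a ratio of 77.7. It too was lowest in replicate 4 of each form.

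**Figure D2:**
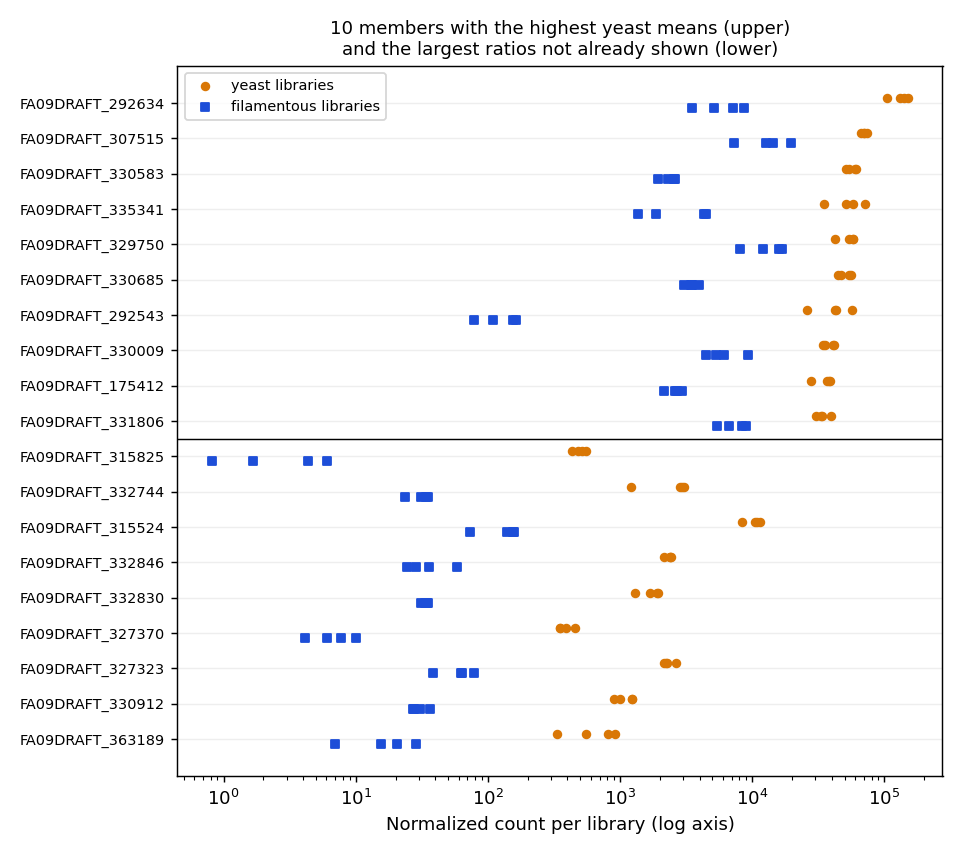
Normalized counts of single libraries on a logarithmic axis, with yeast libraries as circles above filamentous libraries as squares, for the 10 members with the highest yeast means and for the 9 further members with the largest ratios. In every row the circles lie to the right of the squares; the distance between them is widest for FA09DRAFT_292543, whose yeast libraries lie between 25813 and 57229.7 and whose filamentous libraries lie between 78.3 and 164.

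The other 8 members with the largest ratios had low filamentous counts, with means of 3.21 to 60.8. FA09DRAFT_315825 had 550.4, 436, 519 and 484 normalized counts in yeast and 0.821, 6.03, 4.34 and 1.67 in filamentous libraries, where it rested on 1, 7, 5 and 1 raw counts. Its ratio of 118 thus rests on few filamentous counts, and its edgeR log2 fold change was 7.15 (SE 0.33). This SE was derived from the test's F and may understate the error that so few counts bring. FA09DRAFT_332744 had 2942, 2829, 1219 and 3034 in yeast and 23.8, 31.0, 33.9 and 35.004 in filamentous libraries. Its yeast replicate 3 was well below the other yeast libraries, while its filamentous libraries lay close together. FA09DRAFT_332846 had 2387, 2376, 2423 and 2142 in yeast and 36.1, 28.4, 24.3 and 58.3 in filamentous libraries, a ratio of 61.7. FA09DRAFT_332830 had 1901, 1693, 1936 and 1299 in yeast and 34.5, 35.3, 31.3 and 33.3 in filamentous libraries. This low residual level was nearly the same in all 4 filamentous libraries.

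FA09DRAFT_327370 stood at 388 ± 48.4 in yeast and 6.98 ± 2.50 in filamentous libraries (SD, n = 4 each), with 5, 9, 7 and 6 raw counts in filamentous replicates 1 to 4. FA09DRAFT_327323 stood at 2320.4 ± 219.9 in yeast and 60.8 ± 16.5 in filamentous libraries, FA09DRAFT_330912 at 1092 ± 165 in yeast and 30.4 ± 4.41 in filamentous libraries and FA09DRAFT_363189 at 651 ± 263 in yeast and 17.8 ± 8.97 in filamentous libraries. The ratios of these 4 members ran from 34.6 to 48.7, and FA09DRAFT_363189 was among the 3 members with the largest spread between yeast libraries.

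Few members were close to 0 in filamentous libraries. Every member had at least 1 raw count in every library, and the filamentous mean was below 10 normalized counts for 3 members, below 100 for 43 and at least 1000 for 55. The 43 members below 100 had yeast means of 254 to 2506 and a median ratio of 12.7, and 21 of them had a ratio of at least 16. The 55 members at or above 1000 had yeast means of 4226 to 131967 and a median ratio of 5.35, and 4 of them had a ratio of at least 16: FA09DRAFT_292634, FA09DRAFT_330583, FA09DRAFT_335341 and FA09DRAFT_346294. FA09DRAFT_346294, named after its values were seen, stood at 25558 ± 2277 in yeast and 1517 ± 208 in filamentous libraries. The 88 members between these levels had a median ratio of 6.06, with FA09DRAFT_292543 at their upper end. These classes were set after the values were seen, and the yeast and filamentous levels that define them enter the ratio.

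Replicates of the members were less even than those of other genes. The coefficient of variation between yeast libraries had a median of 15.1% over the members and 10.1% over the 5220 other genes with a yeast mean of at least 250. Between filamentous libraries the medians were 20.8% and 13.0%. The other genes were chosen by yeast mean alone and not matched on filamentous level, which the ratio limit holds low for members. The 161 genes that met the same limits with the growth forms exchanged had medians of 18.8% between yeast and 25.5% between filamentous libraries, so genes raised in filamentous growth had wide spreads as well. By filamentous level, the median was 33.8% between filamentous libraries for the 43 members with a filamentous mean below 100, and 16.1% for the 55 with at least 1000.

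Members departed from their own form most often in replicate 4 of each form. Yeast replicate 4 was the lowest yeast library for 87 of 186 members and yeast replicate 3 for 69, against 18 for replicate 1 and 12 for replicate 2. Among the other genes with a yeast mean of at least 250, replicate 4 was the lowest for 40.0% and replicate 3 for 26.6%, where the members' shares were 46.8% and 37.1%. Filamentous replicate 2 was the highest of its form for 39.8% of members and 21.7% of the other genes, which were not matched on filamentous level. Filamentous replicate 4 was the lowest of its form for 93 of 186 members, against 36.7% of the other genes. It was either highest or lowest for 70.4% of members and 72.5% of the other genes. In that library 16 members were at least 1.5 times the mean of the other filamentous libraries and 51 were below it by as large a factor, together 36.0% of members and, by the same measure, 15.5% of other genes. Filamentous replicate 4 held 12.3 M gene counts and yeast replicate 4 held 29.96 M, the most of its form. The part of depth in these departures was not tested.

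**Figure D3:**
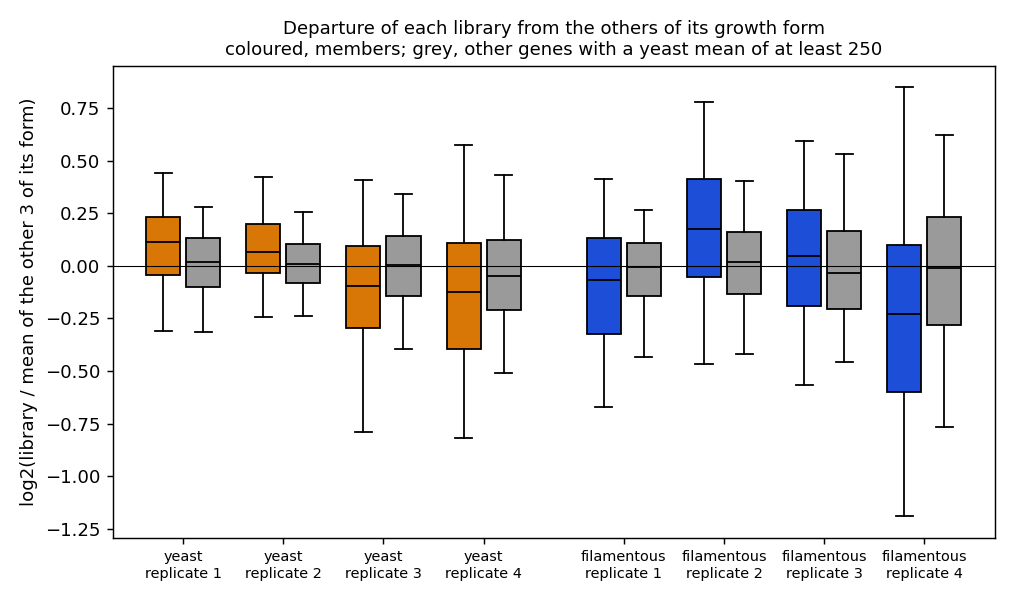
Box plots of the log2 quotient of each library over the mean of the other 3 libraries of its form, with 1 added to both; the members are in colour, on the left of each pair, and the 5220 other genes with a yeast mean of at least 250 are in grey. Boxes are quartiles with the median and whiskers run from the 5th to the 95th percentile; the members' boxes are wider in every library, and the median quotient of the members was 0.852 in filamentous replicate 4 and 0.916 in yeast replicate 4.

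The 3 members with the largest spread between yeast libraries were FA09DRAFT_326167, FA09DRAFT_335717 and FA09DRAFT_363189, with coefficients of variation of 99.4%, 54.9% and 40.4%. FA09DRAFT_326167 had 236, 256, 145 and 1041 normalized counts in yeast replicates 1 to 4 and 100.1, 70.6, 102 and 102 in filamentous replicates 1 to 4. Without yeast replicate 4 it would not have met the limits, and its edgeR log2 fold change was then 1.17, against 2.18 with that library. FA09DRAFT_335717 had 205, 286, 102 and 437 in yeast and 8.21, 16.4, 12.2 and 1.67 in filamentous libraries, where replicate 4 was highest in yeast and lowest in filamentous growth. FA09DRAFT_363189 had 809.6, 914, 548 and 331 in yeast and 20.5, 15.5, 6.94 and 28.3 in filamentous libraries. The 3 most even members were FA09DRAFT_313141, FA09DRAFT_197623 and FA09DRAFT_185461, with coefficients of variation of 2.57%, 2.65% and 2.91%. FA09DRAFT_313141 had 11244, 11387, 10861 and 11535 in yeast and 1852, 2859.8, 3285 and 1350.2 in filamentous libraries. It was steady in yeast and uneven in filaments, with replicates 2 and 3 above replicates 1 and 4. FA09DRAFT_185461 stood at 886 ± 25.8 in yeast and 185 ± 24.3 in filamentous libraries and FA09DRAFT_197623 at 2526 ± 67.0 in yeast and 277 ± 64.7 in filamentous libraries (SD, n = 4 each).

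A gap between the forms was set by the limits, and its width is given as a description. The lowest yeast library was at least 2 times the highest filamentous library for 181 members, at least 3 times for 151 and at least 4 times for 103. The other 5 members had a narrower gap and are named after their values were seen. FA09DRAFT_282903 had 523, 419, 443 and 577 in yeast and 27.9, 21.5, 45.1 and 283 in filamentous libraries, and without filamentous replicate 4 its edgeR log2 fold change was 3.96, against 2.50 with it. FA09DRAFT_363031 had 346, 303, 266 and 125 in yeast and 73.0, 89.6, 60.8 and 10.0 in filamentous libraries, low in replicate 4 of both forms. The others were FA09DRAFT_326167, FA09DRAFT_330398 and FA09DRAFT_345264, the last 2 of which were lowest in replicate 4 among yeast and highest in replicate 4 among filamentous libraries. Of the 1488 fold changes obtained for members with a library left out, only those of FA09DRAFT_282903 and FA09DRAFT_326167 given here moved by over 1.5 times.

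Around the limit on the yeast mean, FA09DRAFT_341621 with a mean of 254 and FA09DRAFT_335717 with 258 were just inside, while FA09DRAFT_165436 with 245 and FA09DRAFT_910 with 224 were just outside. Around the limit on the ratio, FA09DRAFT_359067 at 4.003 and FA09DRAFT_329795 at 4.006 were members, and FA09DRAFT_340323 at 3.994 and FA09DRAFT_336850 at 3.99 were not. FA09DRAFT_359067 had 1430.5, 2208, 1597 and 1510.5 in yeast and 341, 441, 577 and 323 in filamentous libraries. FA09DRAFT_340323 had 13273, 14931, 12319 and 9919 in yeast and 3455, 3069.9, 2752 and 3349 in filamentous libraries. Genes on either side of the limit had like ratios. When the limits were applied with each library left out in turn, 165 members met them every time and 21 did not. Of the 21, all but 2 had a ratio of at most 4.602. Those 2 were FA09DRAFT_335717 and FA09DRAFT_341621, the members nearest to the limit on the yeast mean.

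The limits did not use the position of genes. All 186 members were found among the 7005 protein-coding genes of the reference assembly Tilwa1, whose order gives neighbours on 36 sequences. Of the members, 39, or 21.0%, had another member as next or previous gene, and 4.80% of the 6819 other genes had a member there. The members' pattern was shared by the opposite set: of the 161 genes that met the limits with the forms exchanged, 32, or 19.9%, lay next to one another, and 4.02% of genes outside that set lay next to one of it. Neighbouring members formed 18 pairs and 1 run of 3 genes, and no run was longer. Genes of 3 of these 19 runs overlapped, where reads can be shared or lost, and the strand setting of the counting is not given in the sources used here. Members were found on 30 of the 36 sequences, and made up 0.935% to 4.80% of genes on the 27 sequences with at least 100 genes, against 2.66% over all.

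**Figure D4:**
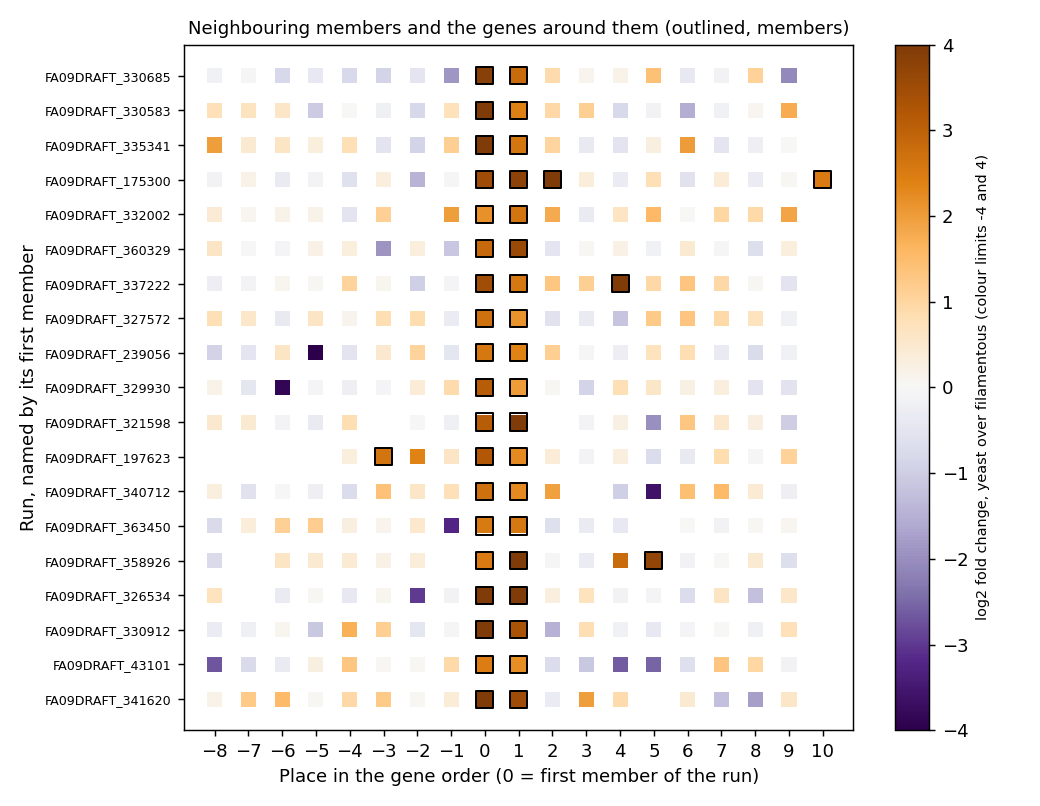
Each row is a run of neighbouring members, named by its first gene, with up to 8 genes on either side in the order of assembly Tilwa1; squares are coloured by the edgeR log2 fold change of yeast over filamentous growth and members are outlined in black. Empty places are genes not tested or beyond a sequence end; the longest run, of 3 members, starts at FA09DRAFT_175300.

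The run of 3 genes was FA09DRAFT_175300, FA09DRAFT_175412 and FA09DRAFT_332830. FA09DRAFT_175300 had 8935, 8915, 8548 and 6587 normalized counts in yeast and 785, 762, 656 and 642 in filamentous libraries. The middle gene, FA09DRAFT_175412, had 38514, 36641, 38254 and 27755 in yeast and 2701, 2925, 2609.5 and 2147 in filamentous libraries, and it overlaps FA09DRAFT_175300. All 3 genes were lowest in replicate 4 among yeast libraries. Their ratios were 11.6, 13.6 and 49.4 in this order, so the gene with the fewest reads had the largest ratio. The pair with the highest summed yeast mean was FA09DRAFT_330685 and FA09DRAFT_330687, where FA09DRAFT_330687 had 18874, 20884, 15202 and 18119 in yeast and 2837, 2531, 2123 and 2817 in filamentous libraries. In the pair of FA09DRAFT_330583 and FA09DRAFT_330584, which overlap, FA09DRAFT_330584 stood at 3358 ± 363 in yeast and 623 ± 103 in filamentous libraries (SD, n = 4 each). FA09DRAFT_326640, the neighbour of FA09DRAFT_335341, stood at 439.8 ± 64.8 in yeast and 70.7 ± 29.3 in filamentous libraries. FA09DRAFT_332002 stood at 4855 ± 418 in yeast and 1068 ± 127 in filamentous libraries, while the neighbour FA09DRAFT_362730 stood at 19459 ± 2405 in yeast and 3125 ± 932 in filamentous libraries. Neighbours in these 4 pairs differed in ratio, by as much as 23.8 against 5.38.

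How far neighbouring members varied alike between replicates of a form was described by a measure that does not use the contrast of the forms. Each gene's log2 normalized count, with 1 added, was taken relative to its mean in its own form, and Pearson's r was computed over the 8 libraries. Over the 20 pairs of adjacent members the median r was 0.54, with quartiles of 0.03 and 0.80, and 10 pairs reached 0.5. Over the 17185 other pairs of members the median was 0.13, with quartiles of -0.27 and 0.50, and 25.3% reached 0.5. All 3 adjacent pairs whose genes overlap, and which may share reads, were high, at 0.63 to 0.90. Without them the median r of the 17 adjacent pairs was 0.41, with quartiles of -0.32 and 0.75, and 7 pairs reached 0.5. The pairs share their libraries and genes and the values are a description. Not every pair moved together. Between FA09DRAFT_175300 and FA09DRAFT_175412 r was 0.90 (0.97 in yeast and 0.77 in filamentous libraries alone). Between FA09DRAFT_335341 and FA09DRAFT_326640 it was 0.88 (0.30 and 0.99). It was -0.52 between FA09DRAFT_337222 and FA09DRAFT_295094 (-0.39 and -0.63) and -0.41 between FA09DRAFT_358926 and FA09DRAFT_315825 (-0.20 and -0.58). FA09DRAFT_315825 had only 1, 7, 5 and 1 raw counts in filamentous replicates 1 to 4, so the -0.41 and the -0.58 rest on few counts. In some pairs the forms differed in sign. Between FA09DRAFT_329930 and FA09DRAFT_329932 r was 0.88 in yeast and -0.86 in filamentous libraries. An r within a form rests on 4 libraries. These pairs were chosen after their values were seen, and the first of them overlaps.

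Genes next to a member that were not members themselves had more calls as higher than as lower in yeast growth, while genes farther away had more as lower. Of the 314 such genes tested, 135 were called higher and 77 lower in yeast growth by edgeR's quasi-likelihood test at an adjusted p of 0.05, or 43.0% and 24.5%. Of the 6222 genes farther away, 28.0% were called higher and 32.4% lower. The median log2 fold change was 0.17 next to a member and -0.07 farther away. At least a 2-fold higher level was called for 22.6% of the next-door genes, against 9.13% of those farther away. At a distance of 2 genes the share called higher was 33.6%, and at 3 to 10 genes it was between 24.9% and 34.8%. Over the 263 next-door genes that overlapped no member, 43.7% were called higher and 23.2% lower, with a median log2 fold change of 0.26. Over the 51 that overlapped a member, the values were 39.2%, 31.4% and -0.05. At least a 2-fold higher level was called for 22.1% of the 263 and 25.5% of the 51. Overlap was judged from the positions of the reference assembly alone, and sharing of reads between neighbours was not tested. The members themselves are not in any of these counts. The members were chosen in the same libraries, and no test of the difference was made.

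**Figure D5:**
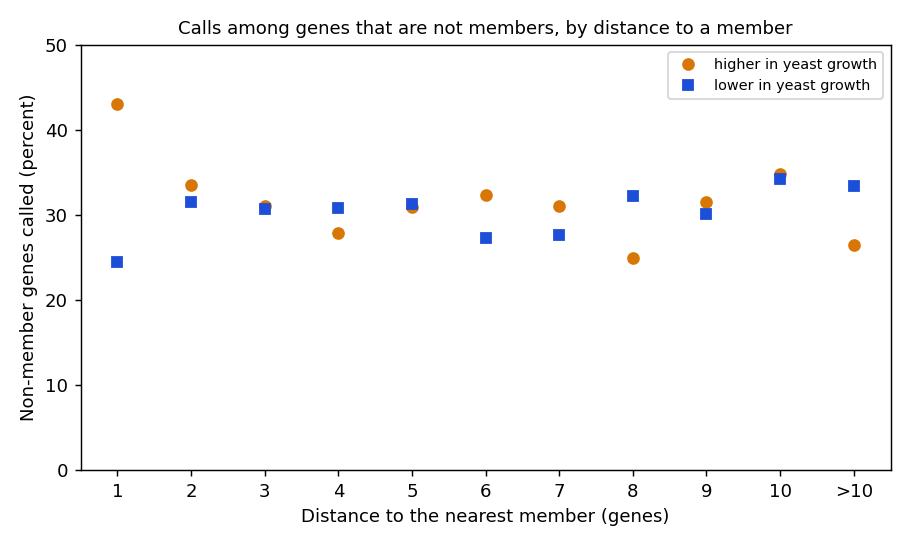
Percent of tested non-member genes called higher (circles) and lower (squares) in yeast growth by edgeR at an adjusted p of 0.05, against the distance in genes to the nearest member. The circle at a distance of 1 gene is at 43.0%, above the circles at every other distance, and the square there is the lowest, at 24.5%.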

How the data were processed

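Poly(A)+ libraries were made from total RNA with Illumina's TruSeq mRNA kit, per the labels' protocols. The submitters' processing notes list cutadapt 1.13, DESeq2 1.20.0, HTSeq 0.7.0 and TopHat2 2.1.1, given here alphabetically and with no stated role. The build, annotation and strand setting used are not stated in any source read here. The deposited raw table holds read counts per protein identifier, and its lines for unassigned reads and totals entered neither the library sizes nor any test: 11.5% to 14.5% of reads had no feature, 3.24% to 3.96% aligned to several places and 0.0473% to 0.0635% were ambiguous. The deposited normalized table holds a signal: in each library, all raw counts were divided by a common factor, from 0.600 to 1.37 (largest relative deviation 5e-15). It leaves out 12 genes with no count.

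Members were found in the normalized table. Log2 fold changes, yeast over filamentous, came from edgeR 4.0.16 in R 4.3.3 on the raw counts of all genes: genes kept by filterByExpr, TMM factors, the quasi-likelihood test (robust) with form as the only term, and a Benjamini-Hochberg adjusted p of 0.05, over 6727 genes. The SE is the log2 fold change divided by the square root of the test's F. It is not a direct standard error and can be too small where counts are few. The labels number replicates without stating separate cultures, so a p-value here rests on a spread between libraries that may be technical. Ratios are means of normalized counts with 1 added.

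Identifiers matched locus tags of Tilwa1 for 7004 of 7011 genes. Its table gave the order of genes only, with 35 sequence ends inferred where positions fall. Members, lists and distance classes were chosen with earlier results of these data known. Named genes were the 10 members with the highest yeast means, the 10 with the largest ratios, those nearest to each limit, the run of 3 genes and the 4 pairs with the highest summed yeast means, and the 3 most and 3 least even members between yeast libraries; others are named as chosen after their values were seen. Comparisons of protein sequence, promoter motifs and product names planned for the members were not made, as no sequence or product table was used here. Alternatives used DESeq2 1.42.0 and limma 3.58.1, and limma was run on genes with a mean normalized count of at least 10. Plots used Python 3.11.15, pandas 2.3.3, numpy 2.4.6 and matplotlib 3.10.9.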

Additional observations from a re-analysis of the deposited data

Results flagged for a closer look

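In each set of 4 libraries, a highest or lowest value far from the other 3 was looked for. Of 80 sets behind the values in the text, 7 had one, where chance gives about 1 in 20, or 4. Some of these genes were named for their spread between yeast libraries, and the sets share libraries. Nothing is therefore read from the 7 against 4. Over all members, 23 of 372 sets had one, where chance gives 18.6, and filamentous replicate 4 was the outlying highest library in 6 and the lowest in 3 of them.

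FA09DRAFT_326167 had 1041 normalized counts in yeast replicate 4, against 145 to 256 in the other yeast libraries, and 70.6 in filamentous replicate 2, against 100.1 to 102.4 in the other filamentous libraries. FA09DRAFT_332744 had 1219 in yeast replicate 3, against 2829 to 3034 in the others. FA09DRAFT_175300 had 6587 in yeast replicate 4, against 8548 to 8935, and FA09DRAFT_332846 had 2142 there, against 2376 to 2423. FA09DRAFT_165436, just outside the limit on the yeast mean, had 309.9 in yeast replicate 1, against 218 to 229.7. Filamentous replicate 4 held 12.3 M gene counts, against 28.0 M to 30.3 M in the other filamentous libraries. No explanation was tested.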

How the results depend on the processing

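The number of members depends on the limits: 700 genes met them with a ratio of at least 2, 75 with at least 8, 206 with a yeast mean of at least 100 and 162 with at least 500. On TMM-scaled counts there were 186, of which 185 were shared, and on counts scaled by library size alone 183, of which 181 were shared. With 1 library left out there were 181 to 198, and the members so chosen held 6.2002% to 7.04% of gene counts in yeast and 0.805% to 1.00% in filamentous libraries. The members' median log2 fold change was 2.64 to 2.77 with a library left out and 2.53 with upper-quartile factors, which moved the median of all genes to -0.14. Their call as higher in yeast growth held for all 186 in each fit run, except that a fit limited to a mean of 10 CPM or more tested and called 172. The limits used the same contrast and libraries and largely set these calls in advance, so nothing is read from them. In the edgeR fit used throughout, 30.7% of all genes tested were called higher. Genes called higher in yeast growth numbered 1759 to 2165 and those called lower 1831 to 2452 over the fits. With upper-quartile factors 1766 were higher and 2452 lower. The share of next-door non-members called higher, whose alternatives were chosen after seeing the data, was 39.5% to 45.7%, against 23.4% to 29.2% of genes farther away. With a neighbour taken as any gene within 2, 47 members had a member near them, or 25.3%, against 9.33% of other genes. The median r of adjacent members was 0.41 without overlapping pairs, an alternative also chosen after seeing the data. A fit with the replicate number as a block called 2143 genes higher and 2172 lower. Deviations of same-numbered libraries correlated at 0.16, 0.18, -0.02 and 0.15. The fits without the block were kept because the labels state no pairing and replicate 3 did not correlate, although 6 of 8 libraries correlated best with their own number, which is a hint of shared variation from the data and not from the design. All 186 members were called higher with the block as well, a call that the limits largely set in advance. Alternatives on sequence relatedness, hydrophobic windows and promoter windows were not run. Depth limits members with few filamentous counts, down to 14 over the 4 libraries.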

Other observations

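The densest stretches of 20 consecutive genes held 5 members, in 4 of 6391 windows, and 59.9% of such windows held none. One of them started at FA09DRAFT_175525 and held the run of 3 members, FA09DRAFT_176444 and FA09DRAFT_332846. FA09DRAFT_176444 stood at 395 ± 85.4 in yeast and 67.4 ± 10.2 in filamentous libraries (SD, n = 4 each). The genes of the window between these members had ratios of 0.493 to 1.73. The window was chosen after its values were seen.

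Some genes strongly raised in opposite forms were neighbours. Of the 161 genes that met the limits with the forms exchanged, 4, or 2.48%, lay next to a member. Over all genes that were not members the share was 4.80%. The count of 4 is small and nothing is read from it. FA09DRAFT_330009, with means of 37870.03 in yeast and 6300.2 in filamentous libraries, lies beside FA09DRAFT_330010, with 6849.9 in yeast and 31171 in filamentous libraries. FA09DRAFT_338127, with 21143 in yeast and 3136 in filamentous libraries, lies beside FA09DRAFT_329329, with 755 in yeast and 3137 in filamentous libraries. The other 2 pairs are FA09DRAFT_331745 with FA09DRAFT_331746 and FA09DRAFT_363450 with FA09DRAFT_363449. None of these pairs overlaps.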
